A study of Homo sapiens with 20 samples.

Results

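The 10 genes described here encode the core transcription factors of the erythroid (red cell) lineage: GATA1, GATA2, KLF1, TAL1, LYL1, LMO2, LDB1, ZFPM1, GFI1B and NFE2. They were taken as a list of genes by name, from the complex that GATA1, TAL1 and KLF1 form with their partners, and all 10 were found among 60616 gene identifiers of the RNA-seq tables, 20401 of the Ribo-seq tables and all 4 lists of immunoprecipitation peaks. The cells were K562, a human leukaemia line with erythroid features. Knockout cells had exon 5 of NAT10 removed with CRISPR-Cas9, and wild type cells were the parental K562 line, which carries no edit named in the labels. NAT10 is the enzyme that places N4-acetylcytidine (ac4C) on RNA. Each genotype had 2 RNA-seq libraries (total RNA) and 2 Ribo-seq libraries from cycloheximide-treated cells. Immunoprecipitation with an ac4C antibody or with control IgG (acRIP-seq) had 2 libraries of each kind in each genotype, and its peaks came as 1 list per antibody and genotype. No source used here states whether the knockout cells are 1 clone or whether libraries came from separate cultures. The p-values therefore cover the spread from library to library alone, and that spread may be technical. The sources describe sucrose gradient fractions for Ribo-seq and name no nuclease step, so the word footprint below follows the sample titles.

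GATA1 and GATA2 are zinc finger proteins that bind GATA words in DNA, GATA2 mainly in progenitors and GATA1 in maturing red cells and platelet precursors. TAL1 and its close relative LYL1 are basic helix-loop-helix proteins that join GATA factors through LMO2 and LDB1, a bridge that binds no DNA itself and that can bring distant enhancers to promoters. KLF1 binds CACC words beside them, ZFPM1 (FOG1) is the cofactor of GATA1, GFI1B is a repressor, and NFE2 pairs with small MAF proteins at the globin locus control region.

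RNA-seq libraries held between 10388717 and 18778485 counts and Ribo-seq libraries between 621287 and 1220308. The 2 knockout RNA-seq libraries differed by little more than counting noise (chi-square per degree of freedom 1.03, against 12.5 for the wild type pair), so their counts were summed to 1 sample for every RNA test. The knockout sample was thereby assumed to vary like the wild type pair. Where knockout and wild type RNA values are said below to overlap or not, the 2 knockout values stand for 1 sample. Their closeness to each other is no evidence of agreement between replicates. Whether they are separate preparations or repeat reads of 1 library was not tested. NAT10, the edited gene, stood at 49.9 and 49.3 counts scaled to equal library size (CPM) in the knockout RNA libraries and at 139 and 144 in the wild type ones. Its log2 difference, knockout minus wild type, was -1.51 in RNA (SE 0.085, edgeR quasi-likelihood adjusted p = 0.000102) and -1.82 in footprints (SE 0.19, adjusted p = 0.000334). The K562 identity genes were all measured. Of the markers of other cell types, GP9, GP1BB, PF4, PPBP and MS4A1 were at 0 in every RNA library and MPO, ELANE and CD14 lay at or below 0.266 CPM. Others were well above 0 in wild type: KRT18 stood at 227 and 219 CPM, KRT8 at 196 and 197, FCGR2A at 84.0 and 81.1, CD33 at 53.7 and 51.0, and GP6 at 51.7 and 45.2.

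The stretches upstream of 5 of the genes are shown because 4 of them (GATA1, TAL1, ZFPM1 and GFI1B) passed the RNA test, while KLF1 did not and had the most GATA words. Each is the 250 bases before the most upstream start in RefSeq (GRCh38.p14), written 5′ to 3′ on the gene's strand. Capitals mark a GATA word, which is NGATAN with A or T first and A or G last, on either strand.
GATA1 promoter, chrX:48786340-48786589 (+ strand): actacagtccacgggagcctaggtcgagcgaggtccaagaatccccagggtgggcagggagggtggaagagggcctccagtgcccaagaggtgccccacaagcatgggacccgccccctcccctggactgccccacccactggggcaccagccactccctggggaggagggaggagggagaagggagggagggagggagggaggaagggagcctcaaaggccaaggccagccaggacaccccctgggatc
TAL1 promoter, chr1:47232336-47232585 (- strand): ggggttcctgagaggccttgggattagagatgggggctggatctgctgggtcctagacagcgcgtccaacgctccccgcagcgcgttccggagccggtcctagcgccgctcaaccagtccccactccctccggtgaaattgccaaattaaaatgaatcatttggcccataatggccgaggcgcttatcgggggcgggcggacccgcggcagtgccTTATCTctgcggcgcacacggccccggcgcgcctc
ZFPM1 promoter, chr16:88453030-88453279 (+ strand): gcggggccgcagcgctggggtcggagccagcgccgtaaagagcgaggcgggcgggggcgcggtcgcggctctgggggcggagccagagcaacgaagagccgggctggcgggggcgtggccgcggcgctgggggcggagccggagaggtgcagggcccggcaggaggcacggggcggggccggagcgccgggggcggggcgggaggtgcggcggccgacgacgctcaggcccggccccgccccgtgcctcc
GFI1B promoter, chr9:132945281-132945530 (+ strand): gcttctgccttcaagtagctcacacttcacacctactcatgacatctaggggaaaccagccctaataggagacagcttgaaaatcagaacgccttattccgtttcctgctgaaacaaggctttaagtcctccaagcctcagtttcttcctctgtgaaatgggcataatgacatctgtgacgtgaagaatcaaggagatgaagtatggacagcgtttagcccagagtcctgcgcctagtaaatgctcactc
KLF1 promoter, chr19:12887202-12887451 (- strand): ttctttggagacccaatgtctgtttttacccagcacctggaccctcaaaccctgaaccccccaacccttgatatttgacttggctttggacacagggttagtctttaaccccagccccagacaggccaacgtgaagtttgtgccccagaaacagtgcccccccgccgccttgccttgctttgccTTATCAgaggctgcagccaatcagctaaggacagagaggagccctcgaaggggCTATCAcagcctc
The table held a promoter for 8 of the 10 genes, with 11 starts in all, and none was found there for LMO2 and NFE2. KLF1 had 2 GATA words and TAL1 had 1 in the window shown, and LYL1 and the downstream start of GFI1B had 1 each. GATA1, ZFPM1, LDB1 and GATA2 had none in their windows. Of 35116 promoters of the same length, 22.3% held a GATA word. A match is a run of letters and not a measured site.

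RNA of 5 of the 10 factors passed the test (edgeR, Benjamini-Hochberg adjusted over 16277 genes, threshold 0.05), where 14.0% of all genes tested did. TAL1 rose, and GATA1, LMO2, ZFPM1 and GFI1B fell. LYL1, LDB1, GATA2, KLF1 and NFE2 did not pass. With the knockout libraries kept apart, which counts them as 2 samples, LYL1 and NFE2 also passed (edgeR adjusted p = 0.00483 and 0.0208). The same held with a replicate block as well (adjusted p = 0.0106 and 0.0458). The median log2 difference of the 10 was -0.18, beside -0.00065 for all genes. In these bulk samples, fewer cells of a type and less RNA per cell cannot be told apart.

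GATA1 (ENSG00000102145.15), the master regulator of the lineage, stood at 277 and 267 CPM in the knockout RNA libraries and at 362 and 368 in wild type. Both knockout libraries, which were summed to 1 sample for the test, lay below both wild type ones. GATA1 RNA fell by 0.42 on the log2 scale (SE 0.090, adjusted p = 0.0203), to 74.7% of the wild type mean. GATA2 (ENSG00000179348.12), the factor that GATA1 replaces as red cells mature, stood at 360 and 355 CPM in knockout and at 383 and 360 in wild type. The 2 genotypes overlapped for GATA2, and its difference of -0.05 (SE 0.086, adjusted p = 0.748) was not past the threshold and turned to 0.02 with no filter on low counts. ZFPM1 (ENSG00000179588.9), the cofactor that GATA1 needs at most of its sites, stood at 147 and 144 CPM in knockout and at 237 and 204 in wild type. Every knockout value of ZFPM1 lay below every wild type value. ZFPM1 fell by 0.60 (SE 0.090, adjusted p = 0.00503).

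TAL1 (ENSG00000162367.11), the helix-loop-helix partner of GATA1, was the one factor of the 10 that rose. It stood at 196 and 193 CPM in the knockout RNA libraries and at 136 and 134 in wild type. The knockout values lay well above the wild type pair, which differed little from each other. Its log2 difference was 0.53 (SE 0.071, adjusted p = 0.00330). LYL1 (ENSG00000104903.5), which can take the place of TAL1 in the complex, stood at 268 and 274 CPM in knockout and at 343 and 306 in wild type. The libraries did not overlap, yet the difference of -0.25 (SE 0.089, adjusted p = 0.102) did not pass the test.

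LMO2 (ENSG00000135363.12), the LIM protein that links TAL1 to GATA factors, had the lowest adjusted p of the 10. It stood at 125 and 122 CPM in knockout and at 207 and 194 in wild type, with no overlap. LMO2 fell by 0.70 on the log2 scale (SE 0.076, adjusted p = 0.00133). LDB1 (ENSG00000198728.11), the protein that LMO2 binds and that dimerises to loop DNA, stood at 186 and 185 CPM in knockout and at 203 and 200 in wild type, a narrow gap without overlap. Its difference of -0.11 (SE 0.076, adjusted p = 0.380) was not past the threshold.

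KLF1 (ENSG00000105610.6), the activator of adult beta-globin and many red cell genes, stood at 204 and 202 CPM in knockout and at 232 and 202 in wild type, so the genotypes overlapped. Its difference was -0.09 (SE 0.086, adjusted p = 0.550), or -0.03 and -0.16 without wild type library 1 or 2 and -0.02 with no filter on low counts. GFI1B (ENSG00000165702.14), a repressor that recruits histone demethylase KDM1A, stood at 92.6 and 95.2 CPM in knockout and at 117 and 110 in wild type. GFI1B fell by 0.27 (SE 0.070, adjusted p = 0.0417), the smallest of the changes that passed. The call for GFI1B was lost with no filter on low counts (adjusted p = 0.194), in DESeq2 (adjusted p = 0.329) and without knockout library 1 (adjusted p = 0.0595). NFE2 (ENSG00000123405.14) stood at 275 and 278 CPM in knockout and at 256 and 238 in wild type. Both knockout values of NFE2 were the higher, by a difference of 0.17 (SE 0.080, adjusted p = 0.223) that did not pass.

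**Figure D1:**
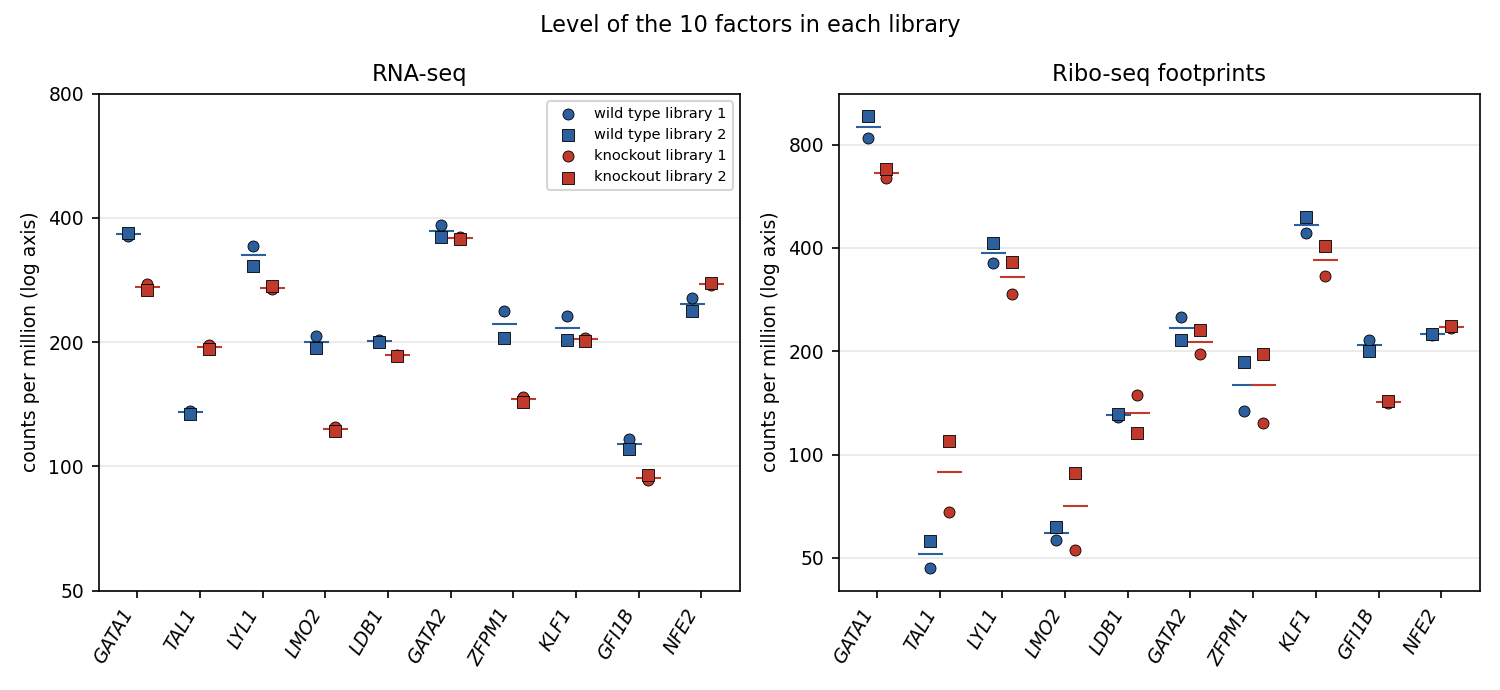
RNA and ribosome footprint levels of the 10 factors in CPM, 1 point per library, by genotype. In RNA, TAL1 is higher and GATA1, LMO2, ZFPM1 and GFI1B are lower in both knockout libraries than in both wild type libraries. The knockout RNA libraries differed by little more than counting noise and were summed to 1 sample for the test.

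The footprint libraries were shallower, and none of the 10 factors passed the footprint test (edgeR, adjusted over 8887 genes), where 5.34% of all genes tested did. At an unadjusted p under 0.05 there were 4 of the 10 (GATA1, TAL1, KLF1 and GFI1B), and DESeq2 also called 0. With a replicate block those 4 were called, and with no filter on low counts 2 were, GATA1 and GFI1B. GFI1B footprints stood at 141 and 143 CPM in knockout and at 216 and 201 in wild type. Both knockout libraries were below both wild type libraries, with a difference of -0.58 (SE 0.16, adjusted p = 0.0550). GATA1 footprints stood at 640 and 681 CPM in knockout and at 836 and 969 in wild type, again without overlap. Their difference of -0.48 (SE 0.13, adjusted p = 0.0588) did not pass. With 1 library left out the adjusted p was 0.0328 without knockout library 2, 0.130 without knockout library 1, 0.0964 without wild type library 1 and 0.333 without wild type library 2, and in DESeq2 it was 0.127.

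TAL1 footprints stood at 68.2 and 109 CPM in knockout and at 46.7 and 56.0 in wild type, so the knockout pair was higher but far apart. The difference was 0.72 (SE 0.26, adjusted p = 0.132). Without knockout library 1 it was 1.08 (adjusted p = 0.00609), and without knockout library 2 it was 0.38 (adjusted p = 0.480). KLF1 footprints stood at 331 and 406 CPM in knockout and at 442 and 493 in wild type, a difference of -0.38 (SE 0.15, adjusted p = 0.172). That difference was -0.23 (adjusted p = 0.614) without knockout library 1. LYL1 footprints, at 294 and 364 CPM in knockout and 361 and 415 in wild type, overlapped between genotypes, and their difference of -0.28 ran from -0.44 to -0.11 without knockout library 2 or 1.

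LMO2, whose RNA fell, had footprints of 52.8 and 88.5 CPM in knockout and 56.5 and 61.4 in wild type. The knockout libraries lay on either side of the wild type pair, and the difference was 0.17 (SE 0.26, adjusted p = 0.759). It was -0.19 without knockout library 2 and 0.56 (adjusted p = 0.308) without knockout library 1. ZFPM1 footprints stood at 124 and 196 CPM in knockout and at 134 and 187 in wild type, likewise overlapping, with a difference of -0.06 (SE 0.23, adjusted p = 0.909) that turned to 0.28 without knockout library 1 and 0.19 without wild type library 2. GATA2 had 196 and 230 CPM in knockout and 252 and 215 in wild type. LDB1 had 149 and 116 CPM in knockout against 129 and 132, and NFE2 had 234 and 237 against 223 and 225. These 3 factors had log2 differences of -0.18, 0.02 and 0.04, with adjusted p of 0.570 or more, and the LDB1 value turned to -0.19 without knockout library 1. The GATA2 value was -0.05 without knockout library 1 and -0.06 without wild type library 1, and -0.30 and -0.29 without the other library of each pair.

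**Figure D2:**
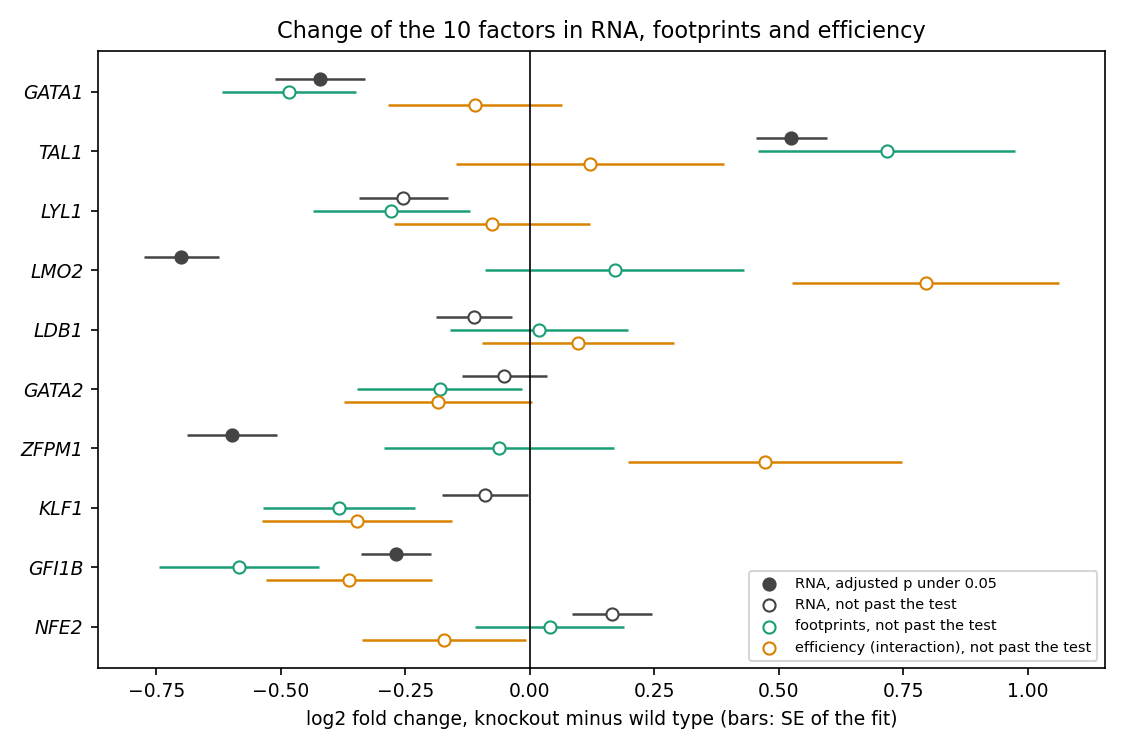
Log2 differences, knockout minus wild type, of the 10 factors in RNA, footprints and translational efficiency, with standard errors. LMO2 lies at -0.70 in RNA and at 0.17 in footprints, while GATA1 lies below 0 in both. Neither footprint value was past the threshold.

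Translational efficiency, the footprint change beyond the RNA change, was tested in edgeR by an interaction term over both kinds of library. None of the 10 factors passed, where 0.0113% of 8821 genes did (1 gene). DESeq2 called none of them either. With a replicate block and the knockout RNA libraries kept apart, edgeR called LMO2 (adjusted p = 0.00802) and ZFPM1 (adjusted p = 0.0124). In the main fit an unadjusted p under 0.05 was found for LMO2 and GFI1B. LMO2 had the largest difference of the 10, 0.80 (SE 0.27, unadjusted p = 0.0108, adjusted p = 0.441), and GFI1B stood at -0.36 (SE 0.17, unadjusted p = 0.0475, adjusted p = 0.493). With 1 Ribo-seq library left out the LMO2 value ran from 0.58 to 1.33 (without knockout libraries 2 and 1), and the GFI1B value from -0.30 to -0.19 (without wild type libraries 2 and 1). ZFPM1 stood at 0.47 (SE 0.28), or 0.95 without knockout library 1 and 0.27 without knockout library 2. KLF1 stood at -0.35 (SE 0.19), or -0.07 without knockout library 1 and -0.17 without wild type library 2. The other 6 lay between -0.18 (GATA2) and 0.12 (TAL1). Of these, GATA1, GATA2, TAL1, LYL1 and LDB1 had the other sign when 1 Ribo-seq library was left out: without knockout library 1 GATA1 was at 0.06, GATA2 at 0.06, LYL1 at 0.21 and LDB1 at -0.02, and TAL1 ran from -0.07 without knockout library 2 to 0.62 without knockout library 1. The NFE2 value of -0.17 ran from -0.07 to -0.05. Like the range of GFI1B, that range does not hold the value with all libraries. With no library left out but the knockout RNA libraries kept apart, all 10 factors lay higher than in the main fit. GATA1 was then at 0.01, LYL1 at 0.03 and NFE2 at -0.06. The change of sign of GATA1 and LYL1 was therefore not particular to a left-out library. The median of the 10 was -0.09, beside -0.05 for all genes.

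Per length, in RNA reads per kilobase of the longest protein-coding transcript, scaled to equal library size (RPKM), the order in wild type ran from GATA1 to TAL1. GATA1 stood at 249 ± 2.63 RPKM (SD, n = 2), followed by LYL1 at 219 ± 17.6 and NFE2 at 135 ± 7.02. KLF1 at 134 ± 13 did not differ from NFE2 beyond the spread of their libraries. GATA2 stood at 110 ± 4.97 RPKM, LMO2 at 96.4 ± 4.55, LDB1 at 64.9 ± 0.632, GFI1B at 46.4 ± 1.76, ZFPM1 at 40.7 ± 4.34 and TAL1 at 27.1 ± 0.297. In knockout TAL1 was no longer last, at 38.9 RPKM, and ZFPM1 was last at 26.8. GFI1B stood at 38.4, and its libraries (37.8 and 38.9) overlapped those of TAL1 (39.3 and 38.5), so these places were not separated. The libraries of GATA1 and LYL1 overlapped in knockout, at means of 186 and 183 RPKM.

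Footprint CPM divided by RNA CPM, taken in wild type, spread widely among the factors. It was 2.47 for GATA1, 2.16 for KLF1 and 1.83 for GFI1B, above the upper quartile of 1.58 over 8821 genes. LMO2 at 0.294 and TAL1 at 0.379 lay below the lower quartile of 0.601. The all-gene median was 0.997, and 4 of the 10 factors were above it. Over the 10 factors this ratio and transcript length had a Spearman correlation of -0.661, a description only: RNA and footprint counts may cover different parts of a transcript, which was not tested.

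Ratios within a library show how the counts of 2 factors stood to each other, free of scaling between libraries. They do not measure the proteins of the complex. TAL1 over GATA1 in RNA was 0.708 and 0.721 in knockout, against 0.376 and 0.365 in wild type. The same ratio in footprints was 0.107 and 0.161 in knockout, against 0.0559 and 0.0578 in wild type, so the genotypes did not overlap in either assay. TAL1 over LYL1, which can take its place in the complex, was 0.732 and 0.704 in knockout RNA and 0.398 and 0.439 in wild type. TAL1 over LMO2 in RNA was 1.58 in both knockout libraries and 0.658 and 0.693 in wild type. GATA1 over GATA2 in RNA was 0.770 and 0.753 in knockout, below 0.945 and 1.02 in wild type, while in footprints it was 3.27 and 2.96 against 3.31 and 4.51. GATA1 over ZFPM1 in RNA was 1.88 and 1.86 in knockout, above 1.53 and 1.80 in wild type. In footprints it was 5.18 and 3.47, below 6.26 and 5.19. GATA1 over KLF1 in RNA was 1.36 and 1.33 in knockout, below 1.56 and 1.82 in wild type. In footprints it overlapped, at 1.94 and 1.68 against 1.89 and 1.97. No test was made of these ratios, which use the same counts as the changes above. The knockout RNA libraries differed by little more than counting noise, so the closeness of their ratios adds little.

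LMO2 lies on the short arm of chromosome 11, and NAT10 is the second tested gene from it on the centromere side, after CAPRIN1. Its change was therefore set beside those of its neighbours, 10 tested genes on each side in RefSeq gene order. Of the 10 on the side toward the chromosome tip, 7 fell and 0 rose in RNA, where 8.79% of all genes fell, with a median of -0.55 and a range from -1.01 (CD59) to 0.54 (CSTF3-DT). LMO2 at -0.70 was lower than all but 2 of those 10. On the centromere side 2 of 10 fell, CAPRIN1 (-0.66) and NAT10 (-1.51), and the median was -0.18. In footprints 6 genes on the tip side were tested and 0 were called, with a median of -0.46, and 2 of them lay above 0 as LMO2 did. On the centromere side 2 of 7 fell in footprints, CAPRIN1 (-0.82) and NAT10 (-1.82), where 3.87% of all genes did, and the median was -0.26. NAT10 is the edited gene itself, and it is counted in the shares and medians of that side in both assays. CAPRIN1 was the only other gene called there in either assay. Whether the place of LMO2 beside the edited gene has a part in its RNA value was not tested.

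**Figure D3:**
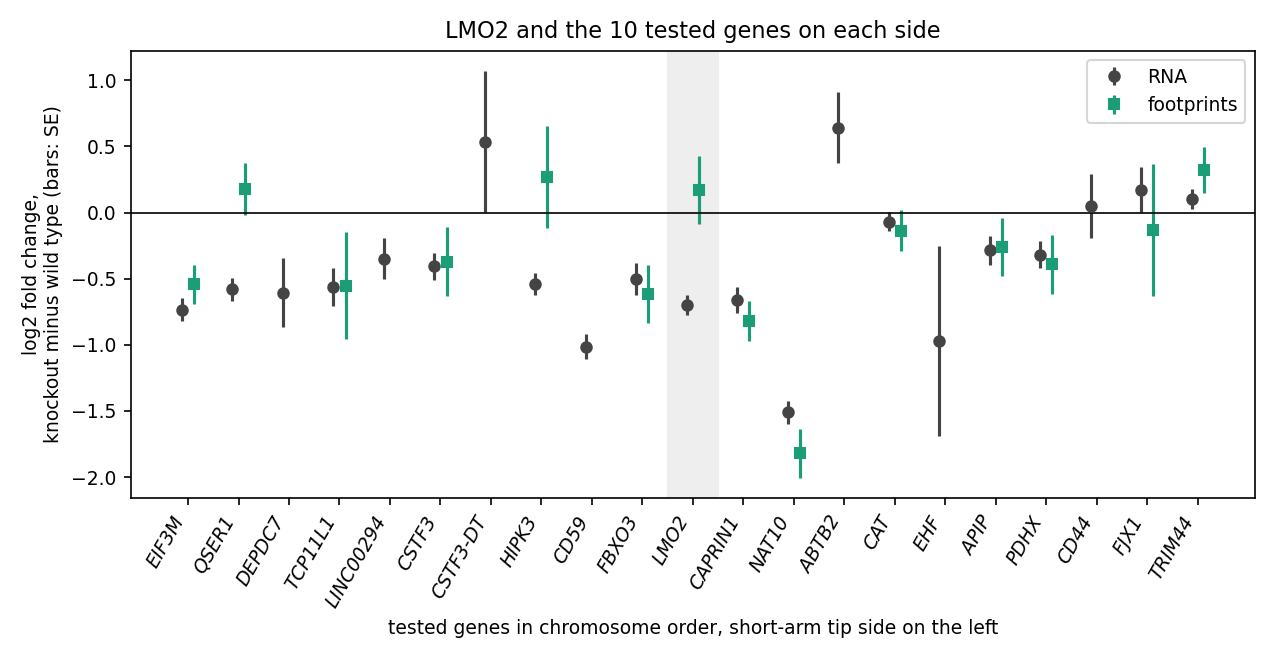
RNA and footprint log2 differences of LMO2 and the 10 tested genes on each side of it, in gene order along chromosome 11. The tip side and CAPRIN1 lie mostly below 0 in RNA, NAT10 is lowest, and LMO2 is below 0 in RNA and above 0 in footprints. The LMO2 footprint value was not past the threshold and was -0.19 without knockout library 2.

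Other genes of the pathway were counted in lists chosen by known role, beside the 5.17% of all genes tested that rose in RNA and the 8.79% that fell. Of 16 partner subunits of the complexes, 1 rose in RNA (MAFG, the small MAF partner of NFE2, by 0.42) and 1 fell (RUNX1T1, at -3.52 with an SE of 0.79). RUNX1T1 stood at 23.2 and 5.11 CPM in the wild type pair, which differed widely, and at 1.27 and 1.12 in knockout. The 2 calls among 16 are a share near that of all genes. Of 21 corepressors and coactivators, 1 rose (CREBBP, a histone acetyltransferase, by 0.27) and 1 fell (HMG20B, a subunit of the KDM1A complex, at -0.35). The medians of both lists were 0.02, and among the corepressors and coactivators DESeq2 called 0 in either direction, and 0 rose without either knockout library. Of 18 tested paralogs of the 10 factors, 3 rose and 4 fell, among them KLF6, a relative of KLF1, which rose by 0.84, and NHLH1 and NFE2L3, which fell, to -1.18 and -1.59. Among these paralogs DESeq2 called 1 higher and 2 lower, and without knockout library 1 the lower calls were 2.

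Of 32 tested genes that GATA1 and TAL1 are known to activate, 12 rose and 2 fell in RNA, with a median of 0.32, where 5.17% of all genes rose and 8.79% fell. HBZ, the embryonic alpha-like globin, rose by 2.05, and HBA1, an alpha-globin, by 1.16. In DESeq2, 9 were called higher and 1 lower. HBA1 and HBA2 are near-identical, so their counts are uncertain. In footprints 7 of 28 rose and 1 fell, where 1.47% of all genes rose and 3.87% fell, and HBZ rose by 1.66 and HBE1, the embryonic beta-like globin, by 1.55. HBE1 footprints stood at 5557 and 4421 CPM in knockout and at 1894 and 1433 in wild type. Its RNA was near 0, at 2.04 and 2.56 CPM in knockout and 2.41 and 0.786 in wild type. The HBE1 RNA difference of 0.58 was not past the threshold, and the gap between the assays was not tested. In footprints the counts were 5 higher and 0 lower in DESeq2, and 4 higher and 0 lower without wild type library 1. The globins were already known to be higher in these libraries when the list was drawn up, so its direction is not independent evidence.

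Of 16 tested KLF1 targets, 2 rose and 1 fell in RNA, near the 14.0% of all genes called. Those that rose were CDKN2C, a cell cycle inhibitor, and PKLR, the red cell pyruvate kinase, each by 0.31. PKLR is also counted among the activated targets of GATA1 and TAL1 that rose. The Lutheran blood group protein BCAM fell in RNA (-1.47) and in footprints (-2.53), from RNA levels of 14.4 and 13.8 CPM in wild type. The footprint call for BCAM was lost in DESeq2 and without either wild type library. The median of KLF1 targets in RNA was 0.13, and the higher calls were 0 in DESeq2 and without knockout library 1. Of 9 tested genes that GATA1 represses, 1 rose (HHEX, by 0.73) and 2 fell (ETV6, at -0.56, and SPI1, at -0.68), with a median of -0.26. SPI1 encodes PU.1, the myeloid factor that opposes GATA1. Of 13 tested factors of other blood lineages, 1 rose (SOX6, by 1.62, a repressor of embryonic globin) and 3 fell, ETV6 and SPI1 among them, where 5.17% of all genes rose and 8.79% fell. The lower calls in that list were 2 in DESeq2 and without knockout library 1.

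Markers of other lineages moved with genotype beside these values. Of 8 tested granulocyte and monocyte markers 5 fell and 0 rose, where 8.79% of all genes fell and 5.17% rose, and their summed RNA level was 100 and 96.7 CPM in knockout and 219 and 201 in wild type. The differences were -1.38 for FCGR2A, -1.11 for CD33 and -1.71 for ITGAM. SPI1, already counted above in the lists of genes that GATA1 represses and of other blood lineages, is another of those that fell. Of 10 megakaryocyte markers 2 were tested and both fell, ITGA2B (-1.45) and GP6 (-0.56), with a summed level of 41.3 and 43.7 CPM in knockout and 78.9 and 69.2 in wild type. CD3D fell by 0.42 among 4 tested lymphocyte markers, whose sum was 43.2 and 39.5 CPM against 55.4 and 53.0, and KRT19 (-0.74) and KRT8 (-0.37) fell among 5 tested fibroblast and epithelium markers, whose sum was 463 and 473 CPM against 608 and 574. The CD3D call was lost in DESeq2, with no filter on low counts and without knockout library 2, and DESeq2 called 1 of the megakaryocyte markers. The part of these markers in the values of the 10 factors was not tested.

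**Figure D4:**
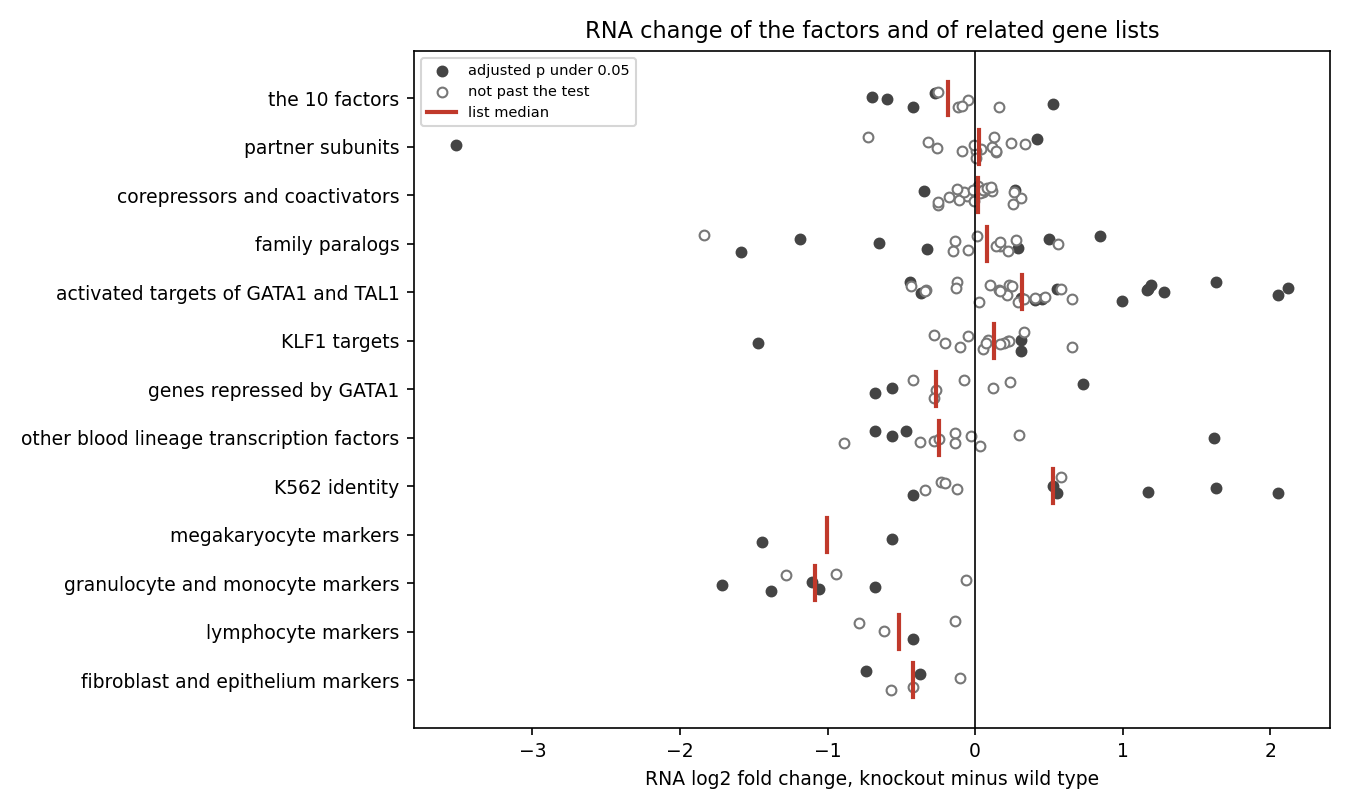
RNA log2 differences of the tested genes in each list, 1 point per gene, with the list median. Activated targets of GATA1 and TAL1 have a median of 0.32 and granulocyte and monocyte markers one of -1.08.

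In the acRIP-seq peak lists, all 10 factors had peaks with the ac4C antibody and with IgG, in both genotypes. Peaks were called on transcript sequences over pooled replicates. Regions are counted per transcript, so sequence shared between transcripts of a gene can count the same signal more than once. Folds are those of the authors, and those of the knockout lists are over input. Where folds of different lists stand side by side below, no test was made. In wild type, 37 of 37 antibody regions on the 10 factors overlapped an IgG region on the same transcript by at least 1 base, beside 93.3% of all 45290 regions. Hence 0 of 10 factors had an antibody region apart from IgG, where 19.9% of 9643 genes did. In knockout 57 of 64 regions overlapped (89.1%, beside 79.6% of all 80709 regions), and 3 of 10 factors (GFI1B, TAL1 and ZFPM1) had a region apart, where 37.4% of 18110 genes did. With summits over 50 bases from every IgG summit as the measure, chosen after seeing the data, 8 of 10 factors had a summit apart in each genotype, beside 66.6% of genes in wild type and 57.5% in knockout.

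The knockout regions apart from IgG were weak. On the 5432-base ZFPM1 transcript the region ran from base 4515 to base 4790 with a fold of 3.75. On TAL1 it lay on a processed transcript at bases 1242 to 1722 with a fold of 3.34. GFI1B had 5 such regions, on 5 transcripts, with folds between 3.13 and 3.96. Equal folds recurred on different GFI1B transcripts (3.13 and 3.44), so these regions may not be separate sites. By comparison, the median fold of all peaks in the knockout antibody list was 4.69.

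The highest fold on GATA1 was 70.3 with the antibody and 68.6 with IgG in wild type, and 49.8 and 34 in knockout. KLF1 had 62.5 with the antibody and 62.5 with IgG in wild type, and 37.8 and 29.8 in knockout. LYL1 had 58.3 and 53.5 in wild type and 61.7 and 44.3 in knockout. In wild type the antibody and IgG folds of these 3, the factors with the highest folds there, were of like size. This is a description only, since the lists differ: the antibody lists held 92194 peaks in wild type and 162944 in knockout. TAL1, at the other end, had 6.40 with the antibody and 8.41 with IgG in wild type, and 6.57 and 5.27 in knockout. LMO2 had 14.2 and 15.9 in wild type and 9.80 and 9.39 in knockout, and GFI1B had 8.96 and 8.58 in wild type and 14.8 and 13.8 in knockout. The antibody regions were broad: in wild type they covered between 43.0% (ZFPM1) and 99.8% (GATA1) of the longest protein-coding transcript. With 1 list per antibody and genotype these values have no replicate check.

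**Figure D5:**
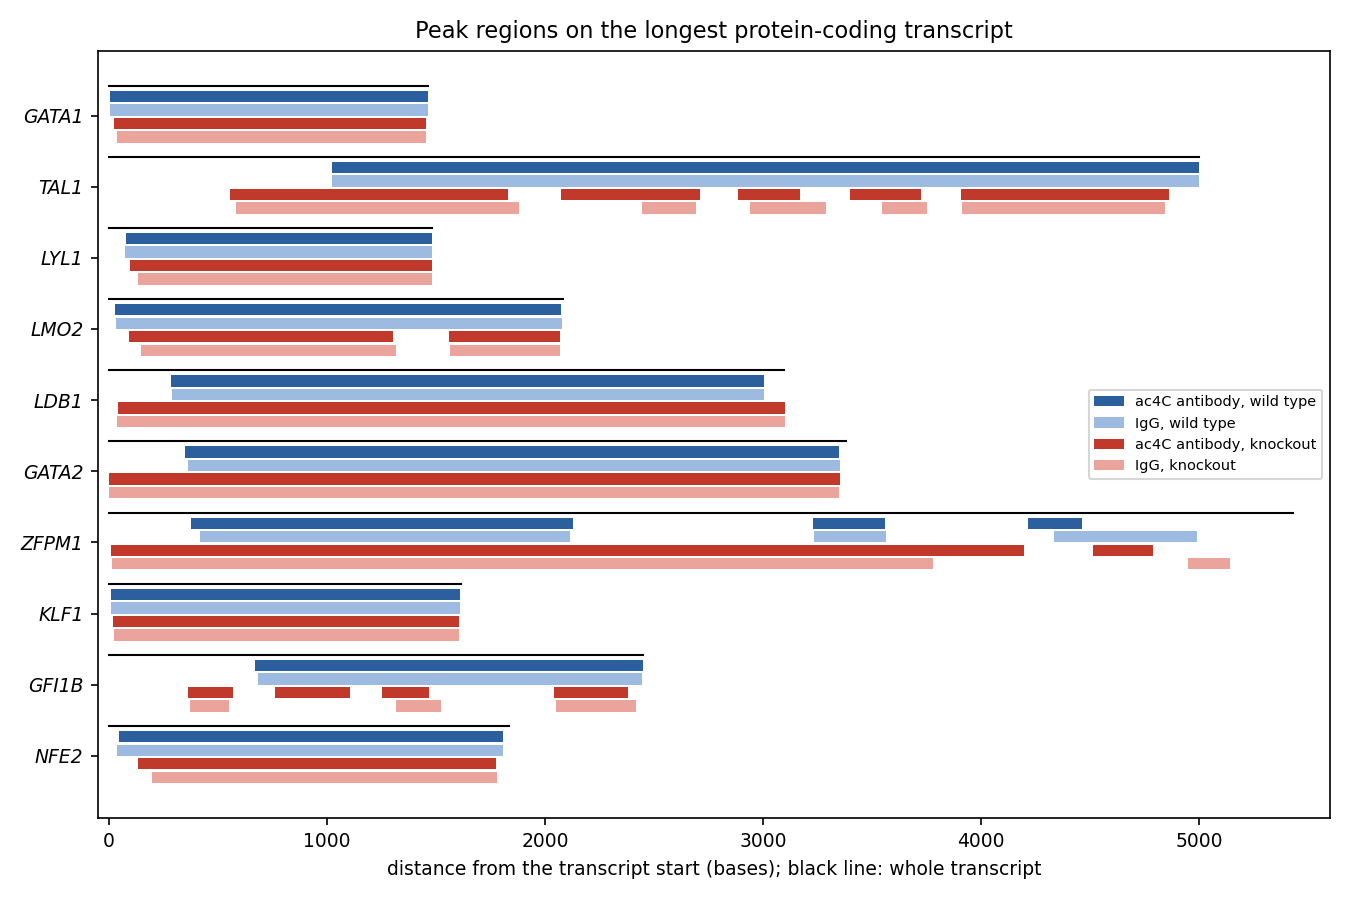
Regions called with the ac4C antibody and with IgG along the longest protein-coding transcript of each factor, in wild type and knockout, by distance from the transcript start in bases. In wild type, antibody and IgG regions overlap on every factor and cover nearly the whole GATA1 transcript, while in knockout ZFPM1 and GFI1B each have an antibody region with no IgG region.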

How the data were processed

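RNA-seq and Ribo-seq were analysed from whole-number read counts per gene as the authors deposited them. Per the submitters' processing notes, featureCounts, STAR, Trimmomatic, cutadapt, DESeq2 and SAMtools were among the tools, with Bowtie2, MACS2, ChIPseeker and bedtools for acRIP-seq, and the build was GRCh38.p13. No source used here states whether counting used strand. The deposited peak lists give a fold enrichment (ratio) and −log10 q per peak, per the file headers and values, on transcripts.

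Samples were grouped by their titles. Symbols were found for 60419 of 60616 RNA-seq and 20352 of 20401 Ribo-seq identifiers, and 44 and 18 duplicate identifiers of the pseudoautosomal region were left out. Counts were tested with edgeR 4.0.16 (R 4.3.3; TMM, filterByExpr, quasi-likelihood F test, Benjamini-Hochberg over all genes tested, threshold 0.05), after the 2 knockout RNA-seq libraries were summed. RPKM used the longest protein-coding transcript in the peak lists. Peak regions reaching past a transcript's end were ended there. The main RNA, footprint and efficiency fits were tested on simulated data, and the alternative fits were not. In the simulation the summed knockout sample varied like wild type, so that assumption was not checked. Alternatives were DESeq2 1.42.0, other scaling, no filter, a replicate block, single libraries left out, and stricter peak rules. All 10 members were described, and from each list up to 3 genes in RNA and 2 in footprints with the lowest adjusted p among those past the threshold were named, except 1 gene that is not reported here. Further genes were named after their values were seen: the neighbours of LMO2 and the markers given at or near 0. Members and lists were chosen with earlier results of these data known. Spread between libraries and, for low counts, depth set the precision, and no absolute RNA amount was measured.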

Additional observations from a re-analysis of the deposited data

How the results depend on the processing

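Over all genes, the RNA calls (2271) became 5476 with the knockout libraries kept apart, 4983 with a replicate block as well, 3513 with no filter on low counts and 1039 in DESeq2. The RNA calls among the 10 factors stayed between 4 and 7: GATA1, TAL1, LMO2 and ZFPM1 passed in each of the 7 tests run, and GFI1B in 4. The footprint calls (475) became 1594 with a replicate block, 889 with no filter and 181 in DESeq2, and ranged from 264 to 716 with 1 library left out. Among the 10 factors, the footprint calls (0) became 4 with a replicate block (GATA1, TAL1, KLF1 and GFI1B) and 2 with no filter (GATA1 and GFI1B), and ranged from 0 to 1 with 1 library left out. The efficiency calls (1) became 17 with the knockout libraries kept apart, 319 with a replicate block as well, 81 with no filter and 12 in DESeq2, and ranged from 0 to 6 with 1 library left out (5 without wild type Ribo-seq library 1, 3 without wild type Ribo-seq library 2). Among the 10 factors, 2 efficiency calls (LMO2 and ZFPM1) appeared with the replicate block. The cause of these shifts was not tested. The replicate numbers share no stated source: same-numbered libraries had deviations correlated at -0.014 in RNA and 0.23 in footprints, over 2 pairs. By summit distance, added after seeing the data, 8 factors in wild type and 8 in knockout had an antibody summit apart from IgG, against 0 and 3 by overlap. Leaving out a wild type RNA library left no test, and those values have none. In the main fit no footprint difference of a factor was past the threshold at this depth and with 2 libraries per genotype, which does not show that none differed.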
